A study of Mus musculus with 2 samples.

Results

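Heat shock proteins and cytosolic chaperones were examined on 2 two-colour microarrays that set RNA of mice lacking cGMP-dependent protein kinase I (PKGI KO) against RNA of wild type (WT) littermates on a C57BL/6N background. Members were the probes named in the scanner files for the J domain proteins (Dnaja, Dnajb, Dnajc), the HSP70 family (Hspa), the small heat shock proteins (Hspb and Cryab), both cytosolic HSP90 genes, the heat shock factors (Hsf), the BAG proteins, the chaperonin subunits (Cct and Tcp1) and the adaptors Stip1, Ahsa1 and St13. Hspa5 and Hspa9, which serve the endoplasmic reticulum and the mitochondria, were left out, and the muscle forms Hspb6, Hspb7 and Cryab were set apart. This gave 79 genes measured by 151 probes, of 19512 named genes and 41174 gene probes on the array. Of these 79 genes, 73 were kept on each array and 71 on both. Dnajb13, Dnajb7, Dnajc6 and Hsfy2 were not well above background on either array. Hspb7 and Dnajc5b were kept in tissue alone, and Dnajc12 and Hsf4 in culture alone.

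One array compared untreated brown adipose tissue (BAT) of a PKGI KO mouse with that of a WT littermate. The other compared brown adipocytes differentiated in vitro from cells of brown adipose tissue of PKGI KO and WT littermates. On the tissue array KO RNA carried the red dye Cy5 and WT RNA the green dye Cy3, and on the adipocyte array the dyes were the other way round. Each comparison rests on 1 array with no dye swap and no replicate. No test between conditions was therefore possible, and for a single gene a dye effect and a genotype effect cannot be told apart. All ratios below are log2 of KO over WT, so that 1 is a doubling, and a gene was counted as different at 2-fold or more. The labels give neither the age and sex of the mice nor the kind of deletion.

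Heat shock proteins are molecular chaperones. HSP70 and HSP90 use ATP to fold client proteins, J domain proteins deliver clients to HSP70 and speed its ATP hydrolysis, BAG proteins release the bound nucleotide, and the chaperonin TRiC folds actin and tubulin inside a closed barrel. Small heat shock proteins hold unfolding proteins without ATP, and several of them (Cryab, Hspb2, Hspb3, Hspb6, Hspb7 and Hspb8) are abundant in heart and skeletal muscle, where they guard the contractile apparatus. Heat and other proteotoxic stress activate heat shock factor HSF1, which binds inverted repeats of the unit nGAAn in the promoters of the inducible genes. PKGI, encoded by Prkg1, is the kinase that cyclic GMP activates in smooth muscle and in brown fat, and Hspb6 is a known substrate of cyclic nucleotide dependent kinases in smooth muscle.

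The inverted repeat GAANNTTC, in which a pair of heat shock units meet head to head, was searched in RefSeq promoters of build GRCm38.p6, each reaching from 250 bases before to 50 bases after the gene start. The motif reads the same on both strands. It occurred in 11 of the 63 members with a listed promoter (17.5%) and in 9.04% of all 27025 genes with one. Among the small heat shock proteins with a listed promoter, Hspb1, Hspb3, Hspb6 and Hspb8 held it (4 of 6). The longer form in which NNGAA follows GAANNTTC occurred in 1 member, Dnajb6, and in 0.662% of all genes. The windows shown are those of the small heat shock proteins with a match before the gene start, beside that of Hspa1a, the inducible HSP70. Capitals mark GAANNTTC, and each window is written 5′ to 3′ on the gene's own strand.
Hspb1: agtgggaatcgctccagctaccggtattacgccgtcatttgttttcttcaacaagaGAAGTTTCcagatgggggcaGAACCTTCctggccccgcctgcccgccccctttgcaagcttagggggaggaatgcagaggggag
Hspb3: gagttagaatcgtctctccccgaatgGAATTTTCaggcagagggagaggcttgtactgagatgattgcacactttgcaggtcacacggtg
Hspb6: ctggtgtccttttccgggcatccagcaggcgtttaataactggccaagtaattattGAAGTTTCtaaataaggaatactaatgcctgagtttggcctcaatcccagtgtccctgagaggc
Hspa1a: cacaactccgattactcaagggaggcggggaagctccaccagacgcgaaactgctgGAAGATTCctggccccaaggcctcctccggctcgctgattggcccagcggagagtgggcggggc
The Hspb1 window lies at chr5:135887746-135887885 (plus strand), with 2 matches whose first bases stand 117 and 97 bases before the gene start. The Hspb3 window lies at chr13:113663837-113663926 (minus strand), the Hspb6 window at chr7:30553125-30553244 (plus strand) and the Hspa1a window at chr17:34972197-34972316 (minus strand). Their matches begin 224, 120 and 104 bases before the gene start, and for Hspb6 this is one of several listed starts. The match of Hspb8 reaches past the gene start and is not shown. A match is a string of letters and says nothing of binding.

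As a group, chaperone genes lay close to the middle of both arrays, and the exceptions were small heat shock proteins. In tissue, 0 of 73 members were at least 2-fold higher in KO, against 0.800% of all 15621 genes kept, and 4 of 73 (5.48%) were at least 2-fold lower, against 2.44% of all genes. All 4 were small heat shock proteins, namely Hspb3, Hspb8, Hspb7 and Cryab. Without the muscle forms, 2 of 70 members (2.86%) were at least 2-fold lower in tissue, close to the share of all genes. In cultured adipocytes, 1 of 73 members was at least 2-fold higher, against 2.50% of all 15118 genes, and 0 of 73 were 2-fold lower, against 4.17% of all genes. That one member was Cryab, so that without the muscle forms 0 of 71 were 2-fold higher. The median log2 ratio of members was -0.03 in tissue and 0.07 in culture, beside 0.00 over all genes on both arrays. Within 1.5-fold of WT were 65 of 73 members in tissue and 60 of 73 in culture, beside 13938 of 15621 and 12391 of 15118 genes. The tissue calls depend on how spots that the scanner software marked as outliers were treated. When these were kept in the background fit, 0 members passed 2-fold in tissue and 0.455% of all genes were 2-fold lower.

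**Figure D1:**
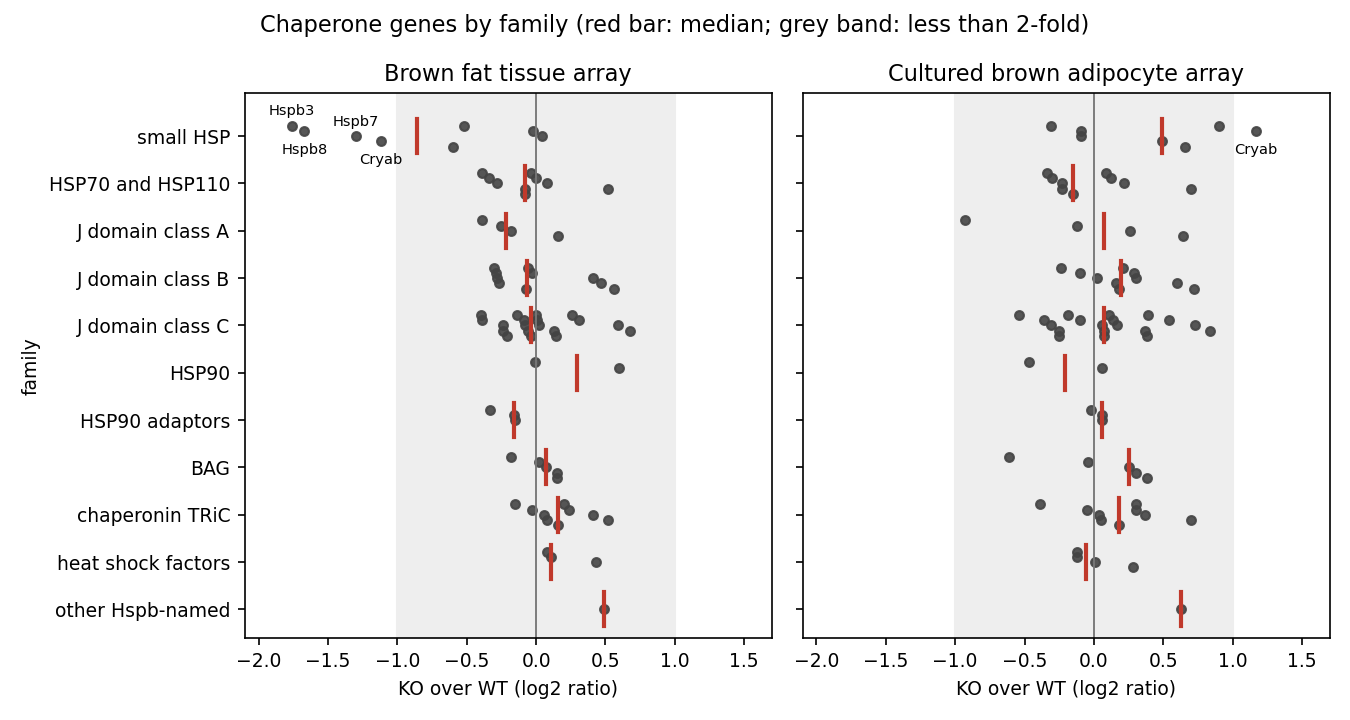
Log2 ratio of KO over WT (horizontal axis) of every kept member by family (vertical axis), on the tissue array (left) and the adipocyte array (right). Each point is 1 gene on 1 array, red bars are family medians and the grey band covers differences under 2-fold. The only points outside the band are Hspb3, Hspb8, Hspb7 and Cryab on the tissue array and Cryab on the adipocyte array.

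The 8 small heat shock proteins had a median log2 ratio of -0.86 in tissue, with 7 of 8 lower in KO, and of 0.49 in culture, with 4 of 7 higher. The exception in tissue was Hspb1, and 8 of 8 were lower where both channels had to be well above background. The other members had medians of -0.01 and 0.07. Relative to the median of all genes, the small heat shock protein median lay between -1.59 and -0.17 in tissue and between 0.25 and 0.54 in culture under every processing tried. In tissue the skeletal muscle markers moved with them. Of 18 such markers 17 were at least 2-fold lower in KO (median -2.29), with a summed intensity of 83693 in KO against 446580 in WT. Alpha skeletal actin (Acta1) differed by -2.33 and muscle creatine kinase (Ckm) by -2.93. Smooth muscle markers in tissue had a median of -0.56, with 1 of 8 at least 2-fold lower. The part of these markers in the tissue values of the small heat shock proteins was not tested, and in bulk RNA fewer cells of a type and less RNA per cell cannot be told apart.

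Hspb3, a small heat shock protein of heart and skeletal muscle, had a log2 intensity of 6.74 in KO tissue and 8.50 in WT tissue. KO was the dim sample, and the log2 ratio of -1.76 was the lowest of the members in tissue. In culture Hspb3 stood at 6.79 in KO and 7.10 in WT (-0.31). The KO value was thus low in both materials. In culture the WT value was low too, and the difference was less than 2-fold. Hspb3 is measured by 1 probe, and its tissue ratio ranged from -3.11 with the scanner software's own ratio to -0.16 with outlier spots in the background fit.

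Hspb8, which works with Bag3 in clearing damaged proteins from muscle, had 8.92 in KO tissue and 10.60 in WT tissue, a log2 ratio of -1.67. In culture it had 10.72 in KO and 10.23 in WT (0.49). KO was therefore the lower sample in tissue and the higher one in culture. With outlier spots in the background fit the tissue ratio was -0.51, and without loess the culture ratio was 0.07. Its partner Bag3, a co-chaperone that is itself heat-inducible, had 10.49 and 10.47 in tissue (0.02) and 9.71 and 9.47 in culture (0.25). Bag3 was thus near equal in tissue.

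Cryab, or alpha B crystallin, a lens and muscle chaperone of desmin and actin filaments, had a mean log2 intensity of 8.55 in KO tissue and 9.66 in WT tissue. The tissue ratio was -1.12. In culture it had 11.83 in KO and 10.66 in WT, a ratio of 1.17. By the mean of kept probes, Cryab was the only member with opposite differences of at least 1.5-fold on the arrays. The chromosome 5 probe of Hspb1, taken alone, passed this limit as well (-0.73 in tissue and 0.90 in culture). For Cryab the difference between the arrays was not tested. In Cryab, as in Hspb8, the Cy3 sample was the brighter one on both arrays, so that dye and genotype cannot be told apart. Its 2 probes differed in tissue, at -1.90 and -0.34, and were alike in culture, at 1.14 and 1.19. Outlier spots in the background fit reduced the tissue ratio to -0.46, and omitting loess gave -0.80 in tissue and 0.75 in culture.

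Hspb2, which RefSeq lists as the gene next to Cryab on chromosome 9, was lower in KO tissue and higher in KO culture as well, by less than 2-fold. It had 6.35 in KO tissue against 6.87 in WT (-0.52), and 8.59 in KO culture against 7.93 in WT (0.66). Its culture probes gave 0.26 and 1.06, and only the former was kept in tissue. With outlier spots in the background fit the tissue ratio was -0.02. The smooth muscle markers also stood higher in KO culture, where 6 of 8 passed 2-fold (median 1.63) and their summed intensity was 185527 in KO against 49950 in WT. Their part in the culture values of Cryab and Hspb2 was not tested. Skeletal muscle markers in culture had a median of -0.18, with 1 of 16, Acta1 at 1.52, at least 2-fold higher.

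**Figure D2:**
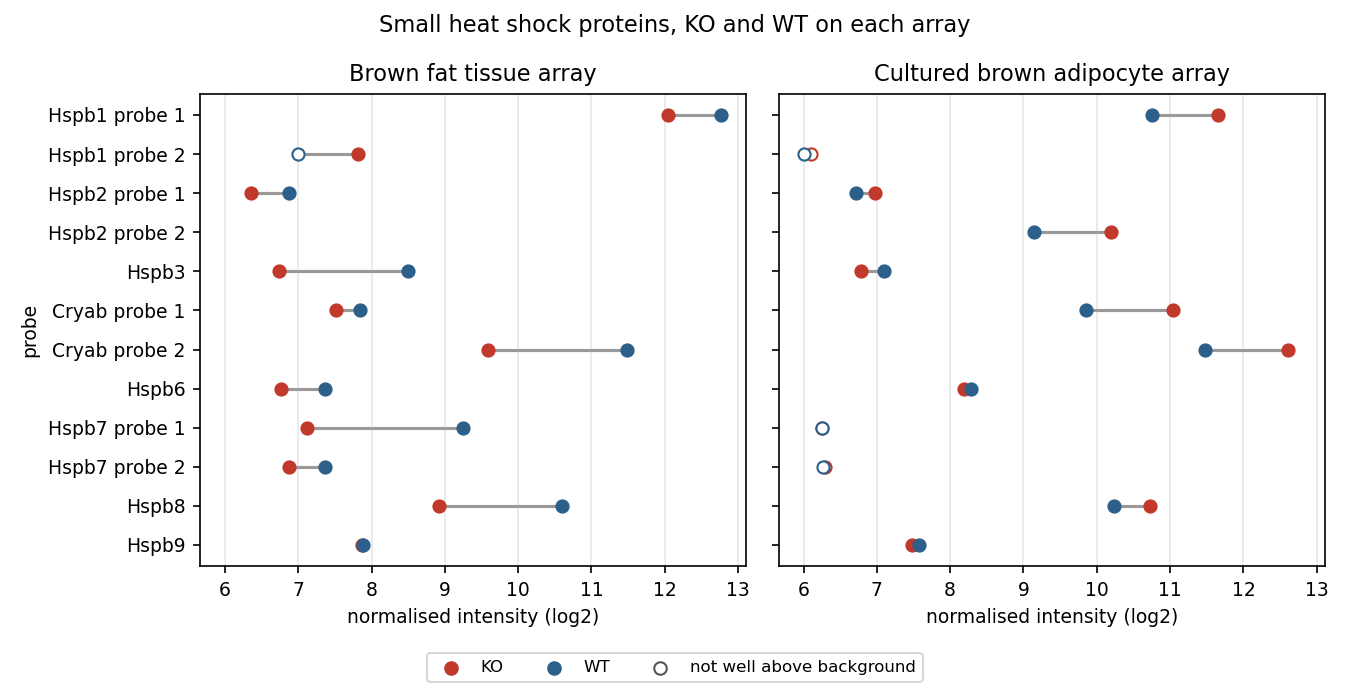
Normalised log2 intensity (horizontal axis) of each probe of the small heat shock proteins (vertical axis) in KO (red) and WT (blue) on the tissue array (left) and the adipocyte array (right). Each point is 1 sample, and open circles are values not well above background. The red points of Hspb3, Hspb8 and the second Cryab probe lie left of the blue ones in tissue, and those of Cryab and of the first Hspb1 probe lie right of them in culture.

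Hspb7, a cardiovascular small heat shock protein, had 7.0 in KO tissue and 8.31 in WT tissue (-1.30). One probe, spotted 10 times, gave -2.12 and the other gave -0.49. Both were on the side of lower KO. In culture neither probe was well above background in either sample. With outlier spots in the background fit the tissue ratio was -0.15.

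Hspb6, the substrate of cyclic nucleotide dependent kinases named above, differed by less than 2-fold on both arrays. It had 6.77 in KO tissue and 7.37 in WT (-0.60), and 8.19 in KO culture and 8.28 in WT (-0.09). The tissue ratio passed 2-fold with a background offset of 0 (-1.07) and with the scanner software's ratio (-1.29), and was -0.04 with outlier spots in the background fit. Culture showed no such spread, with ratios from -0.42 to -0.08. Hspb9, known from testis, was near equal in both, at -0.02 and -0.09.

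Hspb1 (HSP25 in the mouse), an inducible chaperone of actin filaments, was higher in KO culture. The probe placed on chromosome 5, where RefSeq has the gene, gave 11.66 in KO and 10.76 in WT (0.90), which is just under 2-fold. In tissue the same probe gave 12.04 in KO and 12.77 in WT (-0.73). The direction by this probe therefore differed between the arrays. A second probe under the same name is placed by the files on chromosome 13. It gave 0.82 in tissue, where WT was not well above background, and the mean of both, 0.04, describes neither.

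**Figure D3:**
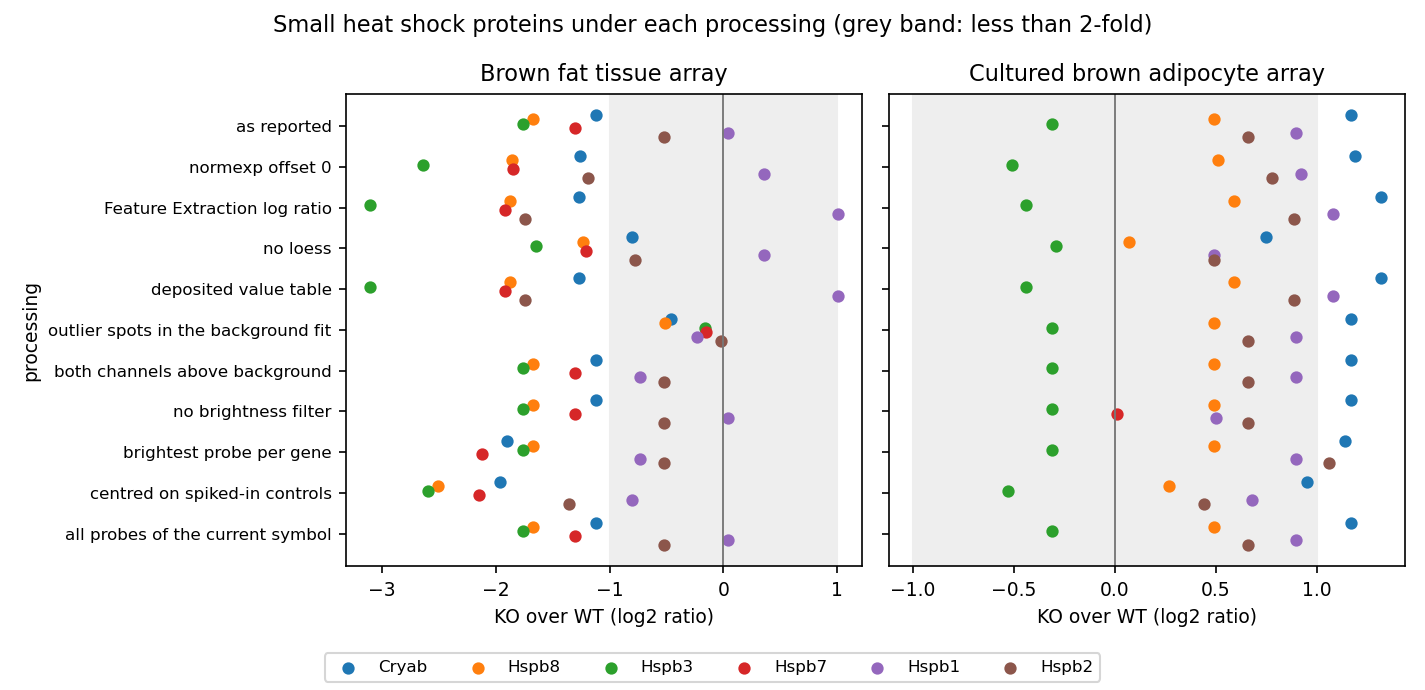
Log2 ratio of KO over WT (horizontal axis) of 6 small heat shock proteins under the reported processing and 10 alternatives (vertical axis), on the tissue array (left) and the adipocyte array (right). Each point is 1 gene under 1 processing. With outlier spots in the background fit the tissue values of Hspb3, Hspb7, Hspb8 and Cryab move to between -0.51 and -0.15, while on the adipocyte array Cryab stays between 0.75 and 1.32.

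The list of heat-inducible members had medians near 0 on both arrays. Without Cryab, these 13 genes, which include Hspb1, Hspb8, Hspa8 and Hsp90ab1, had a median of -0.08 in tissue, with 9 of 13 below 0, and 0.06 in culture, with 8 of 13 above 0. The members held no probe named Hspa1b. Hspa1a, the inducible HSP70 and the textbook readout of heat shock, had 7.72 in KO and 7.79 in WT tissue (-0.08), and 10.00 and 9.91 in culture (0.09). Of the 4 Hspa1a probes, 3 were well above background in both tissue samples. Hsp90aa1, the inducible HSP90, had 14.13 and 14.14 in tissue (-0.01), and 16.01 and 15.95 in culture (0.06). Both pairs were nearly equal on both arrays. Dnajb1, the inducible J domain partner of HSP70, differed by -0.27 and -0.10. Stip1, the adaptor that joins HSP70 to HSP90, differed by -0.15 and 0.06. Ahsa1, an activator of the HSP90 ATPase, differed by -0.33 and -0.02, and Hspa4l, an HSP110 relative, by -0.08 and -0.23. In the reported processing the 6 genes just named differed by less than 1.5-fold on both arrays. Omitting loess turned the sign of some of them (Ahsa1 in tissue became 0.34 and Hspa1a in culture -0.29).

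Of the same 13 genes, Hspa8 and Hsp90ab1 were higher in KO tissue and lower in KO culture. Hspa8, the housekeeping HSP70, had 15.13 in KO and 14.61 in WT tissue (0.52), and 15.88 and 16.23 in culture (-0.34). Its brighter probe gave 0.88 in tissue and -0.58 in culture, and the other gave 0.17 and -0.10. Hsp90ab1, the constitutive HSP90, had 14.20 and 13.60 in tissue (0.60), and 14.10 and 14.57 in culture (-0.47). Cct5, a subunit of TRiC outside that list, had 15.15 and 14.63 in tissue (0.52), and 15.46 and 15.85 in culture (-0.39). In these 3 genes, picked after their values were seen, the Cy5 sample was the brighter one on both arrays, KO in tissue and WT in culture. Other members with high signal were mixed. The Cct2 probe kept on both arrays had the same pattern (0.41 in tissue and -0.34 in culture). Cct7 (0.20 and 0.05) and Hspa14 (-0.04 and -0.23) did not. Dye and genotype cannot be told apart here. The files place both Hspa8 probes on chromosome 5, whereas RefSeq has the gene on chromosome 9, and values of genes with near-identical copies are uncertain.

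Over the 71 members kept on both arrays, 18 were higher in KO on both and 14 lower on both. The Cy5 sample was brighter on both arrays for 12 (16.9%), and the Cy3 sample for 27 (38%), beside 25.8% and 24.4% of the 14278 genes kept on both. No member reached 1.5-fold in the same direction on both arrays.

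**Figure D4:**
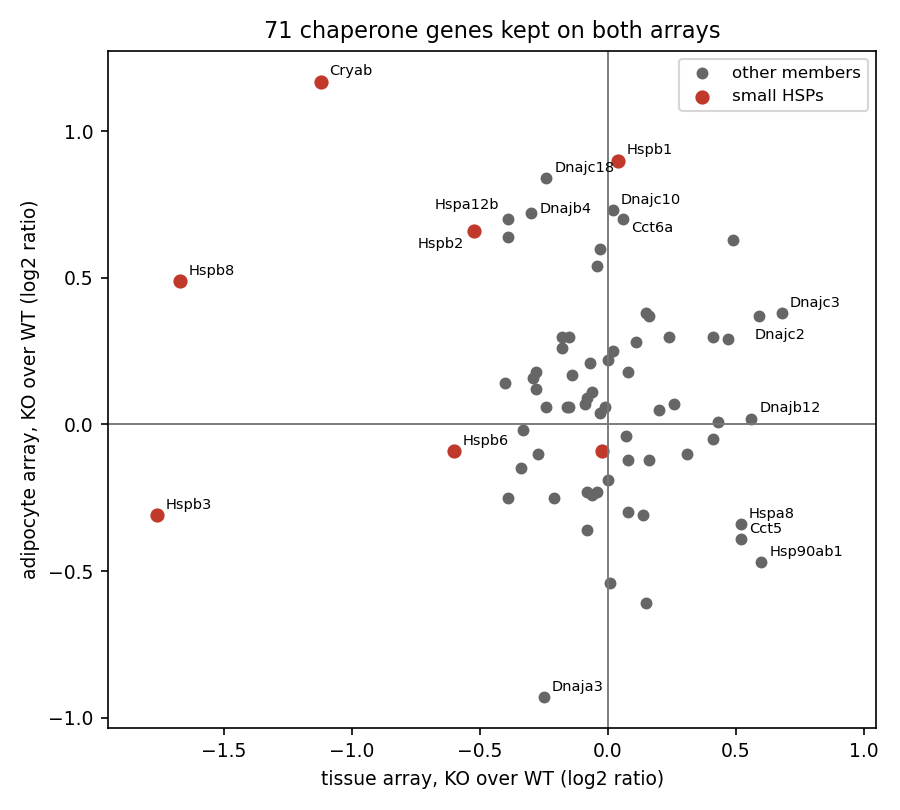
Log2 ratio of KO over WT in tissue (horizontal axis) against that in cultured adipocytes (vertical axis) for the 71 members kept on both arrays. Each point is 1 gene, with small heat shock proteins in red. Cryab is at -1.12 and 1.17, while Hspa8, Hsp90ab1 and Cct5 lie to the lower right, higher in KO tissue and lower in KO culture.

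Among the other HSP70 relatives, Hspa12b, an endothelial form, had 12.38 in KO and 12.77 in WT tissue (-0.39), and 8.79 and 8.09 in culture (0.70). It was lower in KO tissue and higher in KO culture, although omitting loess turned the tissue value to 0.19. Endothelial markers had a median of -0.40 in tissue and -0.17 in culture, and their part in the Hspa12b values was not tested. Hspa2, Hspa4, Hspa14, Hspa1l and Hspa12a ranged from -0.34 to 0.08 in tissue and from -0.30 to 0.22 in culture. Hsph1, which the files carry under an older name outside the member rule, stood at 0.16 and 0.20.

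J domain proteins of classes A, B and C had medians of -0.22, -0.07 and -0.04 in tissue and of 0.07, 0.20 and 0.07 in culture. None of the 33 kept on either array passed 2-fold, beside 0.800% of all genes higher and 2.44% lower in tissue. In culture 2.50% of all genes were higher and 4.17% lower, so 0 of 33 says little about J domain proteins. The lowest in culture was Dnaja3, the mitochondrial partner of Hspa9, with 10.63 in KO and 11.56 in WT (-0.93), after -0.25 in tissue. Its 2 culture probes gave -1.01 and -0.85. KO was thus the lower sample by both probes, and omitting loess took the ratio to -1.34.

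In culture the other mitochondrial J proteins differed by less. Dnajc15 differed by -0.08 in tissue and -0.36 in culture, Dnajc11 by -0.21 and -0.25, and Dnajc19 by -0.40 and 0.14. Mitochondrial chaperones outside the members, a list of 8, had a median of -0.21 in tissue and -0.43 in culture, with 5 of 8 lower on each array. Hspd1, the mitochondrial chaperonin, had 14.17 in KO and 15.14 in WT culture (-0.97). Hspa9, the mitochondrial HSP70, had 13.55 and 14.48 (-0.93), close to Dnaja3. Brown adipocyte markers were lower in the same KO culture, 15 of 17 by at least 2-fold (median -3.38), with a summed intensity of 10265 in KO against 204356 in WT. Their part in the mitochondrial chaperone values was not tested.

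J proteins of the endoplasmic reticulum assist Hspa5 in folding secreted proteins, and the 5 in this list had medians of -0.06 in tissue and 0.17 in culture. Dnajc3, an inhibitor of the kinase PERK, had 11.95 in KO and 11.28 in WT tissue (0.68), the highest ratio of the members in tissue, and 11.80 and 11.42 in culture (0.38). KO was the brighter sample on both, and omitting loess gave 1.23 and -0.03. Dnajc10, a disulfide reductase, had 9.45 and 9.44 in tissue (0.02), and 12.23 and 11.50 in culture (0.73). All 4 Dnajc10 probes were higher in KO culture, from 0.68 to 0.77. Other chaperones of the endoplasmic reticulum had medians of -0.19 and 0.05, with none of 12 in tissue and none of 13 in culture past 2-fold. Of all genes, 0.800% were 2-fold higher and 2.44% lower in tissue, and 2.50% and 4.17% in culture. Hspa5 itself stood at -0.62 and -0.11.

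**Figure D5:**
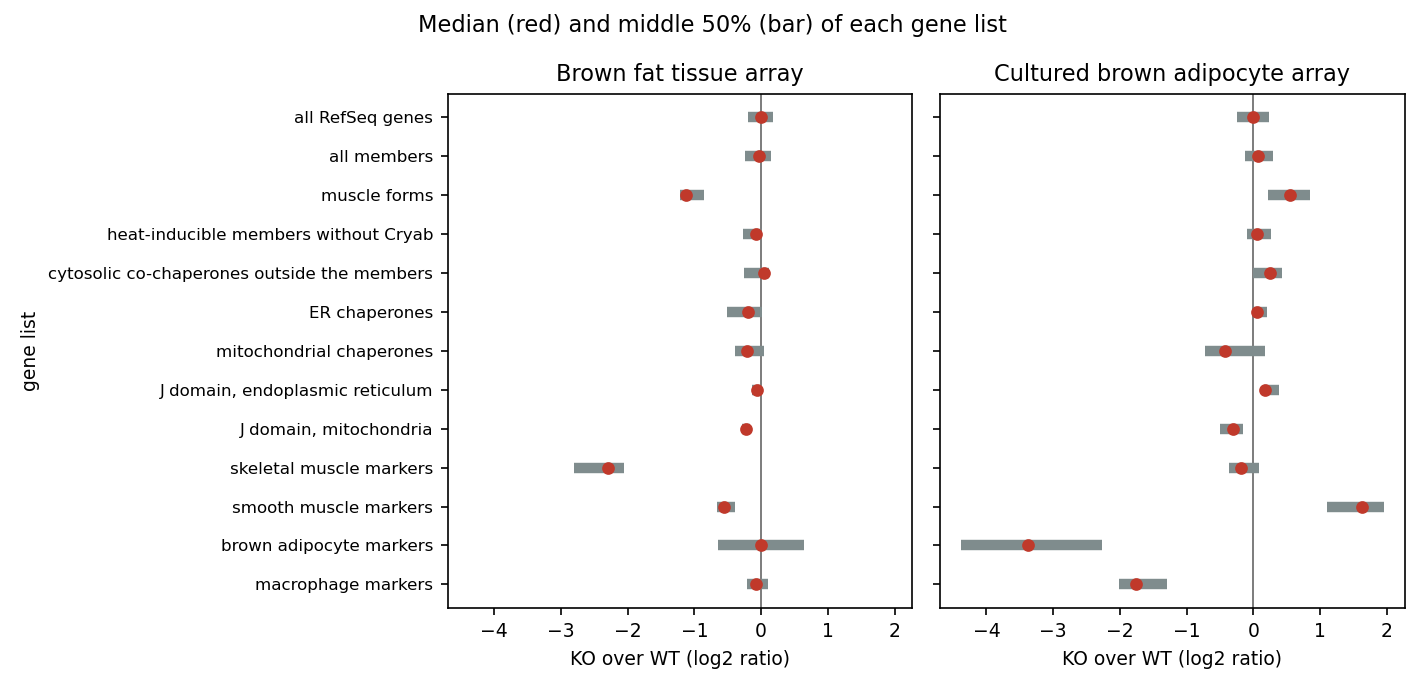
Median (red points) and middle 50% (grey bars) of the log2 ratio of KO over WT (horizontal axis) in each gene list (vertical axis), on the tissue array (left) and the adipocyte array (right). Skeletal muscle markers have a median of -2.29 in tissue, and brown adipocyte and smooth muscle markers have medians of -3.38 and 1.63 in culture. The median of all members is -0.03 in tissue and 0.07 in culture.

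Among the remaining J proteins, Dnajc2, a J protein of the ribosome, had 10.89 in KO and 10.29 in WT tissue (0.59), and 10.77 and 10.40 in culture (0.37). Dnajb12, anchored in the membrane of the endoplasmic reticulum, had 11.24 and 10.68 in tissue (0.56), and 10.14 and 10.12 in culture (0.02). These were higher in KO tissue by less than 2-fold. In culture Dnajc18 had 10.42 in KO and 9.58 in WT (0.84), after -0.24 in tissue. Dnajb4, an inducible relative of Dnajb1, had 10.60 and 9.88 in culture (0.72), with its probes between -0.18 and 1.2, after -0.30 in tissue. Dnaja4 had 8.30 and 7.66 in culture (0.64), after -0.39 in tissue. All 3 were higher in KO culture and lower in KO tissue. Dnaja1, the common cytosolic class A partner of HSP70, differed by -0.18 and 0.26. Dnajb2 differed by 0.47 in tissue and 0.29 in culture, and Dnajb3 by -0.03 and 0.60.

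The 9 genes listed for the chaperonin TRiC, with Cct6a and Cct6b both counted, had medians of 0.16 in tissue and 0.18 in culture. Of these 9 genes, 7 were above 0 on each array. The median turned to -0.68 in tissue with centring on spiked-in controls, and to -0.12 in culture without loess. Relative to the median of all genes it lay between 0.07 and 0.52 in tissue and between 0.14 and 0.30 in culture. Cct6a had 13.71 in KO and 13.01 in WT culture (0.70), the largest value of the complex, and 10.44 and 10.38 in tissue (0.06). Cct2 had 15.02 and 14.60 in tissue (0.41), and its culture probes gave -0.34 and 0.23. The 9 genes ranged from -0.15 to 0.52 in tissue and from -0.39 to 0.70 in culture.

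Hsf1, the factor that switches on the heat shock genes, had 11.62 in KO and 11.19 in WT tissue (0.43), with its 3 probes between 0.12 and 0.89. In culture it had 11.10 and 11.09 (0.01). Hsf2 was not well above background in WT tissue and differed by 0.28 in culture. Bag4, which silences death receptors, had 9.31 and 9.92 in culture (-0.61), by both probes, and 0.15 in tissue. Bag1, Bag2 and Bag5 stayed between -0.18 and 0.38 on both arrays. St13, an HSP70 interacting adaptor, differed by -0.16 and 0.06. Hspbap1, a protein that binds Hspb1, was higher in KO on both arrays, at 0.49 and 0.63.

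None of 25 cytosolic co-chaperones passed 2-fold on either array. Of all genes, 0.800% were higher and 2.44% lower in tissue, and 2.50% and 4.17% in culture, so this count says little. The co-chaperone medians were 0.04 in tissue, with 14 of 25 above 0, and 0.25 in culture, with 18 of 25 above 0. The upper quartile of all genes in culture was 0.24. The largest values were those of Fkbp5, an HSP90 co-chaperone induced by glucocorticoids, at 0.96 in tissue and -0.24 in culture, and of Sugt1, another HSP90 partner, at 0.89 and 0.56. Of 13 HSF1 targets outside the members, 0 were 2-fold higher on either array, beside 0.800% of all genes in tissue and 2.50% in culture. The medians of these targets were 0.04 and -0.09.

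Between the arrays, the same probes were compared by the mean of their channels. Brightness was put on a common scale by matching its distribution between the arrays, which have no sample in common. Of 71 members 21 were at least 2-fold brighter in culture, against 19.7% of all 14221 genes, and 8 were at least 2-fold dimmer, against 17.0%. The member median was 0.41, beside 0.08 over all genes. The TRiC genes had a median of 1.01 and all 9 were brighter in culture. Hspa1a was brighter in culture by 2.20, Dnaja1 by 2.82 and Hsp90aa1 by 1.85. Dnajc9, a J protein of the histone supply chain in dividing cells, led with 3.67. Hspa12b was dimmer in culture, at -4.14, as was Dnajc15, the mitochondrial J protein, at -2.82. Cryab was brighter in culture by 1.00 in WT and by 3.28 in KO. These differences describe an array of tissue against an array of cultured cells and have no replicate.

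Depth and label checks bear on all values. Of the probes, between 63.1% and 74.1% were well above background in the channels of the tissue array and between 68.1% and 70.1% in those of the adipocyte array. Probes spotted 5 to 10 times differed by a pooled SD of 0.107 in tissue and 0.1 in culture, which covers spotting error alone. Different probes of a member differed by a median SD of 0.21 and 0.14. Prkg1, the targeted gene, stood at -0.84 in tissue and -1.03 in culture. Its 3 probes disagreed, ranging from -1.29 to 0.01 in tissue and from -2.31 to 0.17 in culture. The labels do not say where these probes lie relative to the deleted part. Brown adipocyte markers were kept on the tissue array for 17 of 17 genes, 2 of them at least 2-fold higher and 4 lower in KO. Xist differed by 4.41 in tissue, where the Y-linked Eif2s3y was well above background in WT alone, so the tissue samples also differed in sex markers. In culture Xist differed by -3.36, whereas the Y-linked Eif2s3y, Kdm5d, Ddx3y and Uty differed by -0.12, 0.07, 0.61 and 0.57. WT culture RNA had log2 intensities of 10.05 for Xist and 12.39 for Eif2s3y, and so held markers of both sexes. KO culture RNA had 6.69 and 12.28. In culture macrophage markers were lower in KO as well (9 of 11 by at least 2-fold).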

How the data were processed

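Spot intensity (mean signal and local background of both dyes) was read from the deposited scanner output of Agilent Feature Extraction 9.5.1.1, per the file headers, as was its log10 ratio of the dyes. The series' value table, deposited by the authors, gives log10 ratios too. It matched that ratio, turned to KO over WT, within 0.0165 on the log2 scale, with 7623 and 6968 gene spots left empty. Its medians on the log2 scale were 0.10 in tissue and 0.02 in culture. The labels' protocols name Trizol and Agilent's linear amplification kit. No source used here names the genome build behind the probe positions.

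Spots flagged as outliers (1215 of the gene spots in tissue, 203 in culture) were left out before the fit, a choice first made by an earlier analysis after its values were seen. Signals were corrected by normexp (offset 50) and loess, with control spots at weight 0, in limma 3.58.1 under R 4.3.3. Channel values were put on a common scale (Aquantile). Saturated spots (4 and 0) were kept, repeat spots averaged, and probes that were well above background in neither channel dropped. A gene's value is the mean of its kept probes.

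Members followed the gene names in the files, and all other genes the RefSeq table of GRCm38.p6 by accession (23082 probes), symbol (6582) or unique synonym (3073); 8437 probes matched none. Named are the muscle forms, members past 2-fold, the heat-inducible members, the 2 most different members of each family per array, and up to 4 genes of other lists; members in the paragraphs on compartments, on culture against tissue and on dye were picked after their values were seen. Members and lists were chosen with earlier results of these data known. The background and loess steps were tested on simulated data, with known changes in brighter gene spots alone and without outlier-flagged spots. Dim genes such as Hspb3 and the treatment of outlier spots were therefore not covered. With 1 array per comparison no test was run. Alternatives were another offset, no loess, the scanner software's ratio, the deposited table, outlier spots in the fit, 2 other brightness filters, the brightest probe, spike-in centring and current gene symbols. Quantitative PCR replicates named in the series' design are not analysed here. Promoter sequences are RefSeq's.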

Additional observations from a re-analysis of the deposited data

Results flagged for a closer look

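Cryab differed in opposite directions in tissue and in culture, with a log2 ratio of KO over WT of -1.12 in tissue and 1.17 in culture, 2.28 apart before rounding. In both cases the Cy3 sample was the brighter one, so dye and genotype cannot be told apart. With 1 array each, this difference between the arrays was not tested. The sign was the same by both probes on each array and under every alternative tried, from -1.96 to -0.46 in tissue and from 0.75 to 1.32 in culture. Skeletal muscle markers were lower in the KO tissue and smooth muscle markers higher in the KO culture, and their part in the Cryab values was not tested.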

How the results depend on the processing

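No paired analysis was possible because each comparison holds a single array. Of 60 recomputed counts and medians of the members, 41 stayed within the limits set for an unchanged value and 19 moved. The sign of the tissue median turned from -0.03 to 0.36 without loess, and to between 0.01 and 0.02 with the scanner software's ratio, the deposited table and outlier spots in the background fit. That of the culture median turned from 0.07 to -0.22 without loess and to -0.15 with spike-in centring. In tissue, the number of members at least 2-fold higher was 5 with the scanner software's ratio, 5 with the deposited table (both times Dnajb8, Dnajc5g, Hsf2, Hsf2bp and Hspb1) and 8 without loess, instead of 0. Over all genes these settings called 8.98%, 8.95% and 4.3% higher. The number at least 2-fold lower was 7 with the scanner software's ratio and 7 with the deposited table, 24 with centring on spiked-in controls and 0 with outlier spots in the background fit, instead of 4, beside 6.09%, 6.08%, 29.3% and 0.455% of all genes. The last setting left 38 genes higher and 71 lower in place of 125 and 381; the cause was not tested. The median of all genes in tissue was 0.25 without loess, and with spike-in centring it was -0.84 beside -0.87 for the members. In culture, the number higher was 2 with the scanner software's ratio, 2 with the deposited table, 0 without loess, 3 with the brightest probe per gene and 0 with spike-in centring, instead of 1, beside 5.8%, 5.79%, 1.28%, 2.98% and 1.36% of all genes. The number lower was 2 without loess, 1 with the brightest probe and 1 with spike-in centring, instead of 0, beside 8.24%, 5% and 6.44% of all genes. The median of all genes in culture was -0.26 without loess and -0.22 with spike-in centring. Of 748 recomputed values of single members 487 were the same and 261 moved. In tissue Dnajc5g, Hsf2 and Hsf2bp were not well above background in WT, so their ratios are bounds.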
